A study of Homo sapiens with 12 samples.

Results

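The enzymes described here make serine and pass its carbon through the folate cycle. They are 9 genes fixed by name: PHGDH, PSAT1, PSPH, SHMT1, SHMT2, MTHFD1, MTHFD2, MTHFD1L and ALDH1L2. All 9 were found by gene identifier in both deposited expression tables, among 58735 genes in the table for LNCaP and 61221 in the table for PC3. The names were taken with earlier results of these data known. RNA-seq libraries of human prostate cancer cells were compared in 4 groups of 3: LNCaP with erastin, LNCaP with DMSO, PC3 with erastin and PC3 with DMSO. Both lines carry the genotype label WT, erastin was given at 5 µmol/L, and DMSO is its vehicle. The exposure time is not given in the sources used here, and no source says that the 3 replicates of a group are cultures of their own. The p-values therefore speak only of the spread among these libraries, which may be technical. LNCaP is a line from a lymph node metastasis of prostate cancer that depends on androgen, and PC-3 is a line from a bone metastasis that grows without it. Erastin blocks the cystine/glutamate antiporter, which starves cells of cystine and can cause the iron-dependent death called ferroptosis.

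Serine is made from the glycolytic intermediate 3-phosphoglycerate by PHGDH, PSAT1 and PSPH in turn. SHMT1 in the cytosol and SHMT2 in mitochondria split serine into glycine and a carbon unit carried by tetrahydrofolate. In mitochondria MTHFD2 oxidises that unit and MTHFD1L releases it as formate. The formate leaves for the cytosol, where MTHFD1 takes it up for the synthesis of purines and thymidylate. Several of these genes are textbook targets of ATF4, the transcription factor of the amino acid response, and of MYC. Serine is also a source of cysteine through transsulfuration, the route that cells have besides cystine uptake.

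RefSeq promoter windows on GRCh38.p14, from 250 bases before to 50 bases after a start, were at hand for PHGDH, PSAT1, SHMT1, MTHFD1, MTHFD2 and MTHFD1L, 6 of the 9 genes (all but PSPH, SHMT2 and ALDH1L2). They were searched on both strands for TGATGNAA, a form of the element that ATF4 binds with C/EBP partners, and for CACGTG, the E-box that MYC binds. The motifs do not overlap each other. TGATGNAA occurred in 3.62% of all 35116 windows, and among the enzymes in MTHFD1L alone. CACGTG occurred in 7.26% of all windows, and among the enzymes in MTHFD1L and MTHFD1. These shares count windows, and MTHFD1L has several. Its window at chr6:151006758-151007057 has neither motif, and its others overlap and hold the same single match of each. The matches are shown because MTHFD1L is the gene with the deepest fall below. The PSAT1 sequence is shown as that of the most abundant enzyme, and neither motif was found in it. Capitals mark the matched letters. All lie on the plus strand, the first at chr6:150866346-150866375, the second at chr6:150866321-150866350, the third at chr14:64388327-64388356 and the last at chr9:78296875-78297124, the 250 bases before the PSAT1 start, with 65.6% G and C. A match describes letters only.
MTHFD1L, TGATGNAA: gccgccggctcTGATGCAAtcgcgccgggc
MTHFD1L, CACGTG: acgcccggctcCACGTGcgcagccggccgc
MTHFD1, CACGTG: cagtccctaagCACGTGggttgggttgtcc
PSAT1: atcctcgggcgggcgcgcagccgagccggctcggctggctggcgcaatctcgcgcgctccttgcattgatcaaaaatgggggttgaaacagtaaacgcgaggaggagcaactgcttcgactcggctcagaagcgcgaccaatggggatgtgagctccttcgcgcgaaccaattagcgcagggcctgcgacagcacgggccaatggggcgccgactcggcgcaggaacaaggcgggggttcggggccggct

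Expression is given as FPKM, a read count scaled by the length of a gene's exons and by the depth of the library. Recovered reads per library numbered 14047979 to 17668554 in LNCaP and 13709558 to 16350657 in PC3. All 7 defining genes of LNCaP were detected there, 5 of them lower with erastin, and their summed level was 395 to 413 FPKM with erastin and 1052 to 1169 FPKM with DMSO. In libraries labelled PC3, all 5 genes known to be present in that line fell with erastin, their sum being 97.0 to 104 FPKM with erastin and 968 to 1233 FPKM with DMSO. KLK3 stayed near 0 there, as known for PC-3. CTNNA1, which PC-3 is known to lack, had 5.92 to 6.61 FPKM with erastin, against 50.6 to 56.7 FPKM with DMSO, so these libraries go against their label in both groups, and every PC3 result below is that of libraries labelled PC3. CD3E and DCN were at 0 in all LNCaP libraries. The 5 leukocyte markers summed to at most 0.511 FPKM in LNCaP and 1.80 FPKM in PC3, and the 5 stromal markers to at most 3.03 FPKM in LNCaP and 5.04 FPKM in PC3. The 5 endothelial markers summed to at most 0.977 FPKM in LNCaP, but in PC3 to 4.58 to 5.10 FPKM with erastin and 27.1 to 32.2 FPKM with DMSO, most of it KDR (4.01 to 4.47 FPKM with erastin and 26.1 to 31.2 FPKM with DMSO). Mitochondrial ribosomal RNA held 2.73 to 3.54% of reads with erastin and 1.67 to 2.46% with DMSO in LNCaP, and 1.95 to 2.18% with erastin and 0.628 to 0.944% with DMSO in PC3. The part of these shifts in the results below was not tested. In bulk RNA, fewer cells of a kind and less RNA per cell cannot be told apart.

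Transcripts of 8 of the 9 enzymes fell with erastin in both lines, and for each of these 8 every erastin library lay below every DMSO library. The ninth, ALDH1L2, was not tested in either line, since fewer than 3 of the 6 libraries of a line reached 1 FPKM. Of all genes tested, 17.7% fell and 13.8% rose in LNCaP, and 24.3% had all erastin libraries below all DMSO libraries. In PC3 32.4% fell, 34.0% rose and 35.2% had separated groups in that direction. Scaling to the protein-coding total turned the balance over all genes in LNCaP, to 2263 higher and 1948 lower in place of 1894 and 2418, and gave 6104 higher and 4087 lower in PC3 in place of 5232 and 4982. Quantile normalization gave 2680 higher and 2389 lower in LNCaP. All 8 enzymes stayed lower under both scalings. The median log2 fold change of the 8 enzymes was -1.69 in LNCaP and -1.73 in PC3, against -0.02 and 0.00 for all genes tested. Tests are limma on log2(FPKM + 1) with Benjamini-Hochberg adjustment over all genes, and a fold change on that scale understates the change of low genes. With replicate number as a block, the number of genes called in LNCaP was 6893 in place of 4312, and all 8 enzymes remained called.

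**Figure D1:**
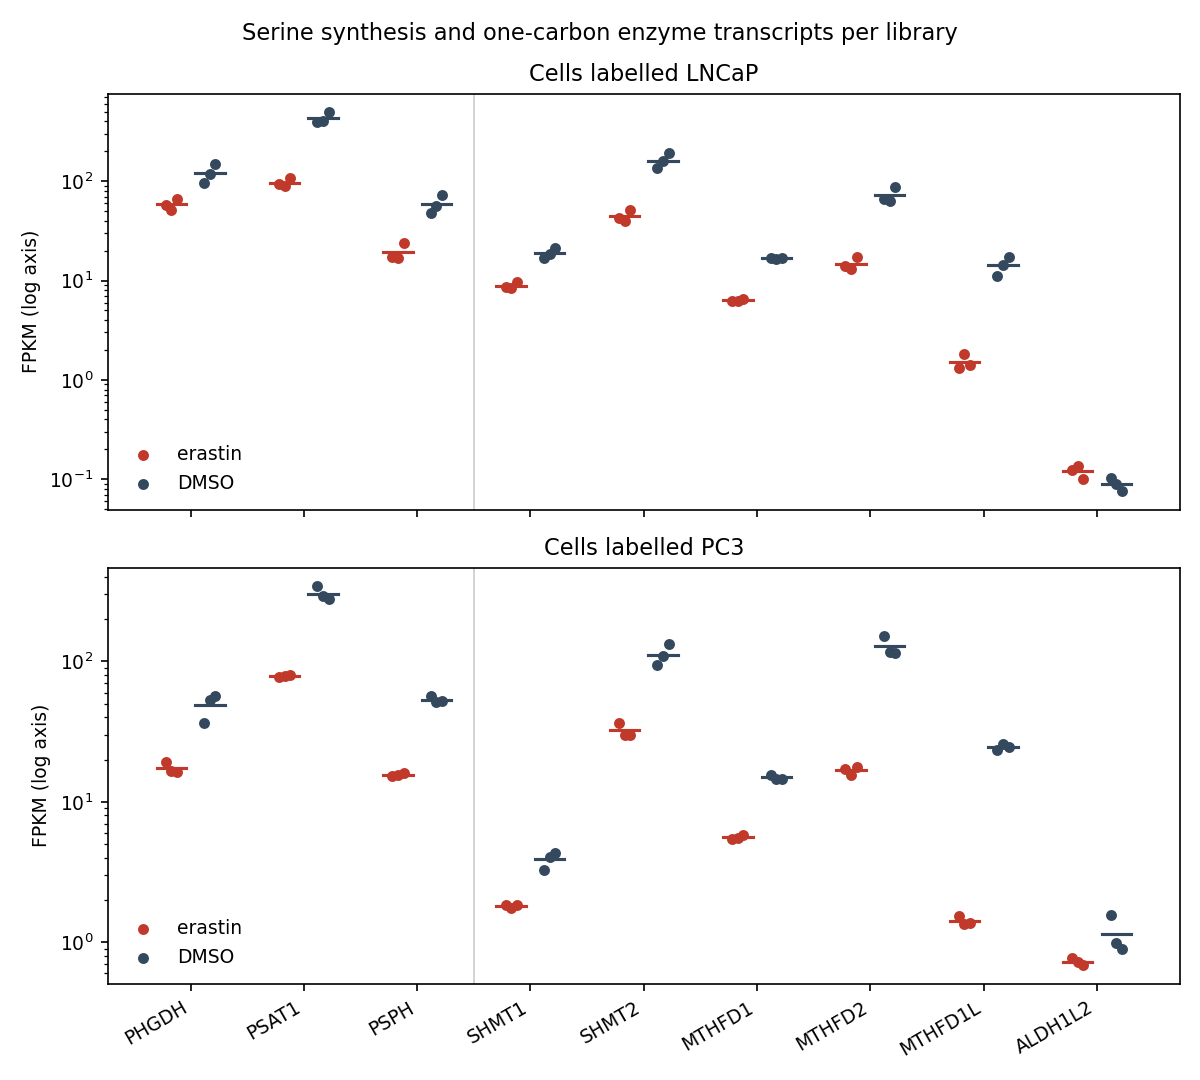
FPKM of the 9 enzymes on a log axis in each library, erastin (red, left) and DMSO (blue-grey, right), LNCaP above and PC3 below. Points are the 3 replicates in order and bars their means. A grey line parts the 3 serine synthesis enzymes from the 6 folate enzymes. The red points lie below the blue-grey ones for 8 genes in both lines, while the groups of ALDH1L2 overlap in LNCaP.

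The 3 enzymes of serine synthesis fell in both lines, with a median log2 fold change of -1.56 in LNCaP and -1.71 in PC3. PHGDH, which oxidises 3-phosphoglycerate in the entry step (chromosome 1, 119648411 to 119744226, plus strand, hg38), had 57.4, 51.6 and 66.2 FPKM in the erastin libraries of LNCaP, against 95.5, 118 and 148 FPKM in the DMSO libraries. The DMSO libraries spread widely, yet the lowest of them was above the highest erastin library. Its log2 fold change was -1.02 ± 0.20 (SE, adjusted p = 0.0104), and without erastin replicate 1 it was no longer called (adjusted p = 0.0523 with limma). In PC3 PHGDH had 19.2, 16.6 and 16.2 FPKM with erastin, against 36.3, 53.3 and 57.0 FPKM with DMSO. The change was -1.42 ± 0.19 (adjusted p = 0.000600), and DMSO replicate 1 was the lowest of its group.

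PSAT1, the transaminase of the pathway (chromosome 9, from 78297143 to 78330093 in the LNCaP table), was the most abundant enzyme in all 4 groups. It had 93.0, 88.3 and 108 FPKM with erastin in LNCaP, against 391, 404 and 491 FPKM with DMSO. The erastin mean was 22.5% of the DMSO mean, a log2 fold change of -2.14 ± 0.17 (adjusted p = 0.000475). In PC3 it had 76.9, 78.9 and 79.9 FPKM with erastin, against 341, 292 and 279 FPKM with DMSO. Here the erastin libraries were nearly level, and the change was -1.93 ± 0.12 (adjusted p = 2.96e-05). PSPH, the phosphatase of the last step (chromosome 7, 56011051 to 56051604, minus strand), had 17.3, 16.9 and 23.7 FPKM with erastin in LNCaP, against 47.9, 56.1 and 72.8 FPKM with DMSO, a change of -1.56 ± 0.20 (adjusted p = 0.00236). In PC3 PSPH had 15.2, 15.4 and 16.03 FPKM with erastin, against 56.4, 51.2 and 52.4 FPKM with DMSO, a change of -1.71 ± 0.10 (adjusted p = 2.70e-05). PSPH is uncertain, because the pseudogene PSPHP1 on the same chromosome, whose reads may not be told apart from its own, had 30.8 to 56.5 FPKM with erastin and 27.1 to 52.9 FPKM with DMSO in LNCaP, and 13.1 to 15.5 FPKM with erastin and 4.90 to 12.9 FPKM with DMSO in PC3. PSPHP1 did not pass the test in either line (log2 fold change 0.12, adjusted p = 0.804 in LNCaP, and 0.67, adjusted p = 0.0867 in PC3).

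Of the cytosolic folate enzymes, SHMT1 and MTHFD1 had log2 fold changes between -1.27 and -0.80 over both lines. SHMT1, cytosolic serine hydroxymethyltransferase (chromosome 17, 18327860 to 18363563, minus strand), had 8.56, 8.38 and 9.74 FPKM with erastin in LNCaP, against 16.9, 18.7 and 21.3 FPKM with DMSO, a log2 fold change of -1.01 ± 0.13 (adjusted p = 0.00199). In PC3 it was the lowest of the 8 under DMSO, with 1.85, 1.74 and 1.83 FPKM with erastin, against 3.30, 4.07 and 4.34 FPKM with DMSO. The change there was -0.80 ± 0.13 (adjusted p = 0.00136), the smallest of the 8, and 46.4% of the DMSO mean remained. MTHFD1, the trifunctional cytosolic enzyme that makes and uses formyl-tetrahydrofolate (chromosome 14, 64388031 to 64463457, plus strand), varied little between replicates. It had 6.27, 6.26 and 6.52 FPKM with erastin in LNCaP, against 16.9, 16.5 and 16.8 FPKM with DMSO. In PC3 it had 5.48, 5.52 and 5.81 FPKM with erastin, against 15.5, 14.6 and 14.6 FPKM with DMSO. Both lines gave a log2 fold change of -1.27, with an SE of 0.09 in LNCaP (adjusted p = 0.000343) and 0.10 in PC3 (adjusted p = 7.79e-05).

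The mitochondrial enzymes included the deepest falls. SHMT2, mitochondrial serine hydroxymethyltransferase (chromosome 12, 57229327 to 57234935 in the LNCaP table, plus strand), had 42.7, 39.4 and 51.2 FPKM with erastin in LNCaP, against 135, 159 and 190 FPKM with DMSO, a log2 fold change of -1.83 ± 0.18 (adjusted p = 0.000927). In PC3 SHMT2 had 36.7, 30.02 and 30.1 FPKM with erastin, against 93.8, 109 and 132 FPKM with DMSO, a change of -1.75 ± 0.16 (adjusted p = 0.000125). MTHFD2, the mitochondrial dehydrogenase and cyclohydrolase best known from embryonic and tumour cells (chromosome 2, 74198562 to 74217565 in the LNCaP table, plus strand), had 14.1, 12.9 and 17.4 FPKM with erastin in LNCaP, against 66.1, 63.8 and 86.8 FPKM with DMSO. That was a log2 fold change of -2.21 ± 0.18 (adjusted p = 0.000435). In PC3 MTHFD2 had 17.3, 15.5 and 17.7 FPKM with erastin, against 152, 117 and 116 FPKM with DMSO, so 13.1% of the DMSO mean remained, a change of -2.85 ± 0.14 (adjusted p = 1.54e-05). Its exons overlap those of SLC4A5 on the opposite strand over part of the 33.2% of exonic bases shared with other genes, but SLC4A5 itself had 0.0137 to 0.286 FPKM. Opposite-strand genes also share 9.51% of the exonic bases of SHMT2 and 11.04% of those of MTHFD1. Of those of SHMT1 3.69% are shared, most of them with SMCR8 on the opposite strand. In PC3 SMCR8 had 14.3 to 16.4 FPKM with erastin and 5.75 to 6.87 FPKM with DMSO. In LNCaP it had 7.38 to 13.1 FPKM with erastin and 3.67 to 7.79 FPKM with DMSO. All these shares rest on an annotation whose gene lengths match those of the LNCaP table. In the PC3 table MTHFD2, SHMT2 and MTHFD1 have other lengths (4822, 4592 and 12208 bases), and their shares there were not measured. The strand setting of the counting is not given in the sources used here, and the part of these overlaps in the values was not tested.

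MTHFD1L, the mitochondrial formyl-tetrahydrofolate synthetase that releases formate (chromosome 6, 150865549 to 151101887, plus strand), fell furthest of the 8 in both lines. It had 1.31, 1.84 and 1.42 FPKM with erastin in LNCaP, against 11.1, 14.3 and 17.4 FPKM with DMSO. That left 10.7% of the DMSO mean, a log2 fold change of -2.58 ± 0.18 (adjusted p = 0.000291), the 30th largest fall of 13683 genes. In PC3 MTHFD1L had 1.53, 1.35 and 1.37 FPKM with erastin, against 23.3, 25.8 and 24.7 FPKM with DMSO. Here 5.76% remained, a change of -3.40 ± 0.11 (adjusted p = 5.09e-06), the 78th largest fall of 15371 genes. In the annotation whose lengths match the LNCaP table, no exon of another gene overlaps its exons.

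ALDH1L2, which oxidises mitochondrial formyl-tetrahydrofolate to carbon dioxide (chromosome 12, minus strand), was low in every library. In LNCaP it had 0.124, 0.136 and 0.0996 FPKM with erastin, from 19, 21 and 15 reads, against 0.102, 0.0887 and 0.0770 FPKM with DMSO, from 13, 12 and 10 reads. The groups overlapped. In PC3 it had 0.770, 0.720 and 0.694 FPKM with erastin, against 1.58, 0.984 and 0.898 FPKM with DMSO. The erastin libraries lay lower there, and DMSO replicate 1 stood above the rest. With no filter on low values it passed the test in neither line (limma, adjusted p = 0.539 in LNCaP and 0.198 in PC3).

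**Figure D2:**
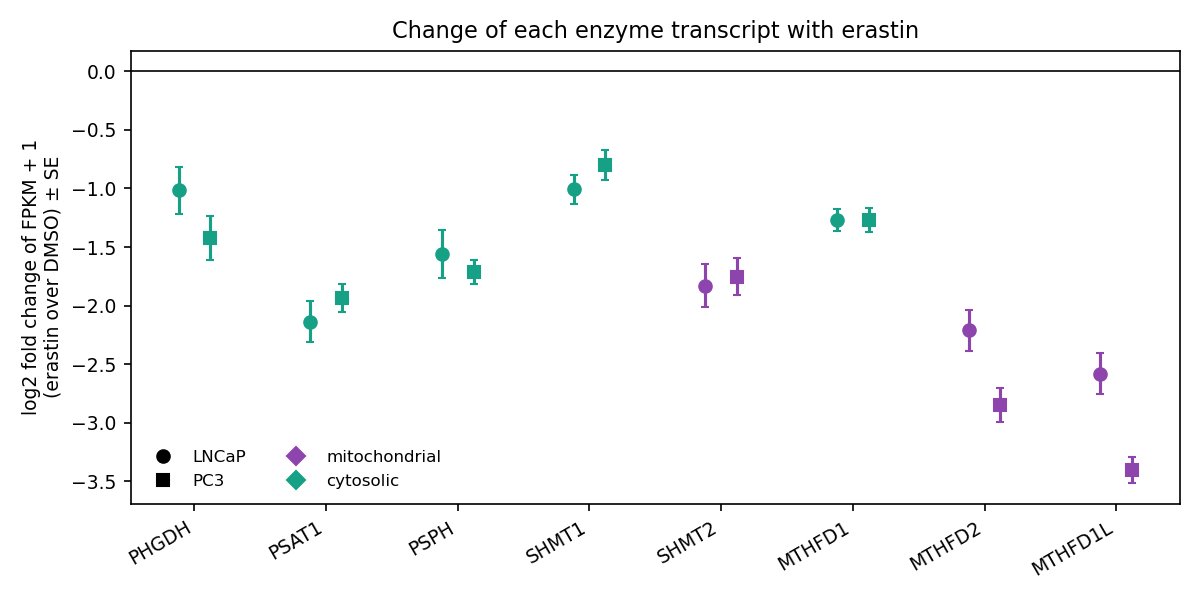
Log2 fold change of FPKM + 1, erastin over DMSO, with SE, for the 8 enzymes that passed the filter, in LNCaP (circles) and PC3 (squares). Mitochondrial enzymes are purple and cytosolic ones green. All values lie below 0, and MTHFD1L is lowest in both lines.

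Set by level within a table, the order of the enzymes was not the same in the erastin and DMSO groups. In LNCaP with erastin PSAT1 was followed by PHGDH, SHMT2, PSPH, MTHFD2, SHMT1, MTHFD1, MTHFD1L and ALDH1L2, whereas with DMSO SHMT2 stood before PHGDH and MTHFD2 before PSPH. The ranges of PSPH and MTHFD2 overlapped in both groups, and those of SHMT2 and PHGDH with DMSO. In PC3 with erastin the order was PSAT1, SHMT2, PHGDH, MTHFD2, PSPH, MTHFD1, SHMT1, MTHFD1L and ALDH1L2. The ranges of PHGDH, MTHFD2 and PSPH there overlapped between neighbours. With DMSO in PC3 MTHFD2 came before SHMT2 and PSPH before PHGDH, with overlapping ranges in both cases, and MTHFD1L was sixth, above MTHFD1 with no overlap. Levels were not tested between lines, since the tables rest on different annotations: MTHFD1 is 9377 bases long in the LNCaP table and 12208 in the PC3 table. In LNCaP replicate 3 was the highest library for 7 of the 8 enzymes in both the erastin and the DMSO group, against 48.6% and 48.3% of all genes. In PC3 DMSO replicate 1 was the highest for 4 of the 8, near the 48.4% of all genes, and erastin replicates 1 and 3 were the highest for 4 each.

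Within a library, the mitochondrial isoenzyme stood lower against its cytosolic counterpart with erastin than with DMSO, for all 3 pairs with both members tested and in both lines. The MTHFD2 and MTHFD1L pairs share MTHFD1. MTHFD2L, a mitochondrial relative of MTHFD2 outside the 9 genes, was named after its values were seen and was not paired. It had 3.33 FPKM on average with erastin and 4.42 with DMSO in LNCaP (limma, log2 fold change -0.31, adjusted p = 0.184). In PC3 it had 4.82 and 4.02 FPKM (limma, 0.25, adjusted p = 0.320). MTHFD1 had -1.27 in both lines, so MTHFD2L stood higher against it with erastin. The median log2 fold change of the 3 mitochondrial enzymes among the 8 was -2.21 in LNCaP and -2.85 in PC3, against -1.27 and -1.42 for the 5 cytosolic ones. The cytosolic ones include the 3 serine synthesis enzymes, which are in none of the pairs. The compartments overlapped, since cytosolic PSAT1 fell more than mitochondrial SHMT2. PSAT1 had -2.14 against -1.83 for SHMT2 in LNCaP, and -1.93 against -1.75 in PC3. The FPKM of SHMT2 was 4.98, 4.70 and 5.26 times that of SHMT1 with erastin in LNCaP, against 7.98, 8.53 and 8.92 times with DMSO. In PC3 the same ratio was 19.8, 17.2 and 16.4 with erastin, against 28.5, 26.8 and 30.4 with DMSO. SHMT2 thus held 83.3 ± 0.777% of the summed SHMT FPKM with erastin and 89.4 ± 0.533% with DMSO in LNCaP, and 94.7 ± 0.492% and 96.6 ± 0.209% in PC3 (SD, n = 3). The ratio of MTHFD2 to MTHFD1 was 2.25, 2.07 and 2.67 with erastin in LNCaP, against 3.92, 3.86 and 5.18 with DMSO. In PC3 it was 3.15, 2.81 and 3.04 with erastin, against 9.83, 8.003 and 7.91 with DMSO. MTHFD1L stood at 0.208, 0.294 and 0.217 times MTHFD1 with erastin in LNCaP, against 0.658, 0.863 and 1.04 times with DMSO. In PC3 it stood at 0.279, 0.244 and 0.236 times with erastin, against 1.505, 1.76 and 1.69 times with DMSO. MTHFD1L was thus below MTHFD1 in all 6 erastin libraries, and above it in the 3 DMSO libraries of PC3 and in 1 of the 3 of LNCaP.

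On the log2 scale with 1 FPKM added to each gene, the SHMT2 over SHMT1 ratio changed by -0.82 in LNCaP and -0.95 in PC3. SHMT1 had only 1.74 to 4.34 FPKM in PC3, so the added 1 FPKM damps its fall and enlarges that change. With 0.1 FPKM added, SHMT2 and SHMT1 had log2 fold changes of -1.85 and -1.08 in LNCaP, and -1.78 and -1.06 in PC3. The values -0.82 and -0.95 therefore do not rank the lines. MTHFD2 over MTHFD1 changed by -0.94 and -1.58, and MTHFD1L over MTHFD1 by -1.31 and -2.14. Groups were separated in all of these, and each gave p = 0.1 in an exact two-sided permutation test over 3 against 3 libraries (0.114 adjusted over 8 tests), the smallest p that this design allows, so none can pass the threshold of 0.05. The last pair, ALDH1L2 over ALDH1L1, rests on low genes and ran the other way in PC3. Its plain FPKM ratio there was 12.2, 10.9 and 10.2 with erastin, against 3.97, 1.99 and 1.46 with DMSO, so every erastin library was higher. ALDH1L1, the cytosolic counterpart, had 0.0634 to 0.0679 FPKM with erastin and 0.397 to 0.616 FPKM with DMSO in PC3. With 1 FPKM added the PC3 groups overlapped, with a change of 0.19 (exact permutation p = 0.4). In LNCaP the plain ratio was 0.785, 1.17 and 0.895 with erastin, against 2.10, 1.38 and 1.47 with DMSO, from 10 to 39 reads per gene and library.

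**Figure D3:**
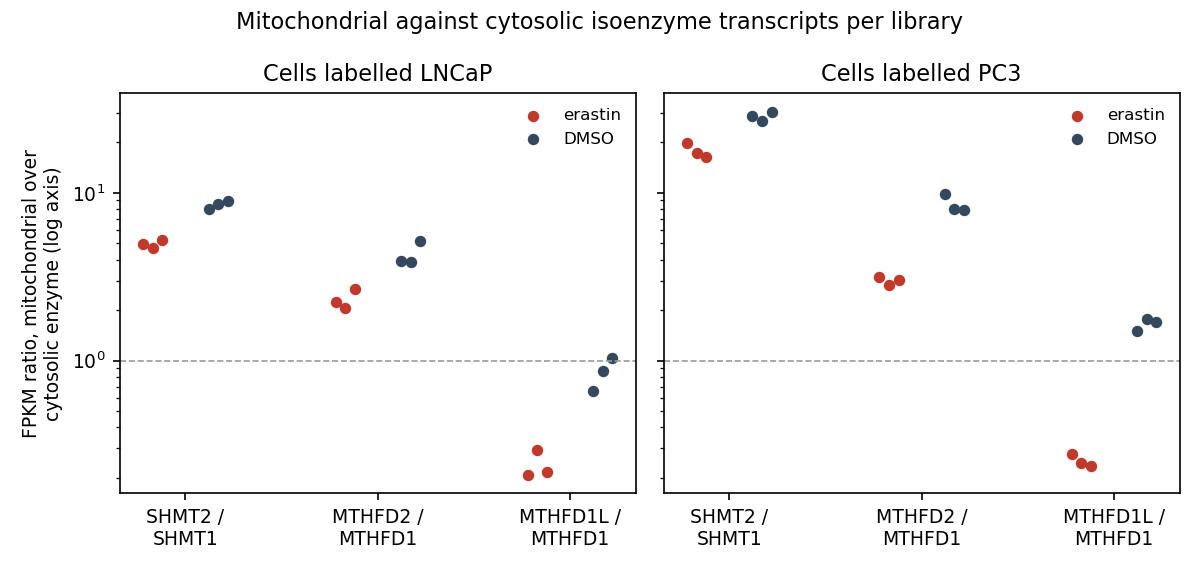
Ratio of FPKM of a mitochondrial enzyme over its cytosolic counterpart in each library on a log axis, erastin (red, left) and DMSO (blue-grey, right), LNCaP in the left panel and PC3 in the right. The dashed line marks equal FPKM. The red points lie below the blue-grey points in all 6 comparisons, and the MTHFD1L over MTHFD1 points with erastin lie at 0.208 to 0.294.

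In the main fit the response of 2 enzymes differed between the lines, where 44.4% of all genes tested in both did. MTHFD1L fell more in PC3, by 0.82 ± 0.21 on the log2 scale (LNCaP change minus PC3 change, limma interaction, adjusted p = 0.00794). MTHFD2 also fell more in PC3, by 0.64 ± 0.24 (adjusted p = 0.0488). The MTHFD2 call was lost in 13 of the alternative settings, which is most of them, and its adjusted p ran from 0.0155 to 0.115. These include each other pseudocount and filter, and the fit without PC3 DMSO replicate 1 (0.51, adjusted p = 0.0635). The other 6 did not pass the test. PHGDH came next with 0.40 ± 0.29 (adjusted p = 0.279), and MTHFD1 had 0.00 ± 0.14 (adjusted p = 0.997). A p that misses the threshold does not show that responses were alike.

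Around the pathway, 13 other folate genes were tested in each line. In LNCaP 4 fell and 1 rose (median log2 fold change -0.31), and in PC3 7 fell and 3 rose (median -0.73). The counts of this list and of those below stand beside the shares of all genes tested. Those shares were 17.7% lower and 13.8% higher in LNCaP, and 32.4% lower and 34.0% higher in PC3. SLC19A1, the reduced folate carrier, had log2 fold changes of -1.80 in LNCaP and -1.83 in PC3. TYMS, thymidylate synthase, had the largest fall of the list in LNCaP, at 2.31 ± 0.186 FPKM with erastin and 22.1 ± 1.73 with DMSO (SD, n = 3 here and for all such values below). In PC3 the log2 fold change was -1.61 for MTR, methionine synthase, and -1.59 for FPGS, which keeps folate in cells.

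Of glycine cleavage and mitochondrial serine genes, 4 of 7 tested fell and 1 rose in LNCaP (median -0.51), and 3 of 5 fell and 0 rose in PC3 (median -0.68). GCSH, the carrier protein of glycine cleavage, fell in both lines, with log2 fold changes of -1.52 in LNCaP and -0.91 in PC3. In LNCaP SFXN2 had -1.37 and GLDC, glycine decarboxylase, had -0.68, while SFXN3 rose by 0.80. In PC3 SFXN1, the mitochondrial serine carrier, had -1.48 and DLD, the shared dehydrogenase subunit, had -0.68.

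Of the purine synthesis genes, which include the enzymes that spend formyl-tetrahydrofolate, 5 of 5 tested fell in LNCaP (median -1.07), and 3 of 5 fell and 1 rose in PC3 (median -0.83). PAICS had a log2 fold change of -1.79 in LNCaP. GART, which uses a formyl unit, had -1.08 in LNCaP and -1.22 in PC3, and ATIC, the other formyl user, had -0.99 and -0.83 in the same lines. PFAS had -1.85 in PC3. PPAT, the first step of the route, had -1.07 in LNCaP and rose by 0.87 in PC3, where it had 24.5 ± 0.788 FPKM with erastin and 13.4 ± 4.82 with DMSO.

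Of the methionine cycle and serine-using genes, 6 of 14 tested fell and 1 rose in LNCaP (median -0.27), and 6 of 14 fell and 4 rose in PC3 (median -0.24). CBS, which joins serine to homocysteine in transsulfuration, had 6.60 ± 0.301 FPKM with erastin and 16.8 ± 3.48 with DMSO in LNCaP, and 0.138 ± 0.0370 with erastin and 2.26 ± 0.466 with DMSO in PC3. CTH, which releases cysteine, had a log2 fold change of -1.18 in LNCaP and rose by 0.76 in PC3, where it had 20.6 ± 1.48 FPKM with erastin and 11.8 ± 1.52 with DMSO. AHCY, which clears S-adenosylhomocysteine, had -0.95 in LNCaP and -1.58 in PC3. AHCYL2 rose by 1.12 in LNCaP and had -2.20 in PC3, and GNMT, glycine N-methyltransferase, had -0.95 in LNCaP and rose by 2.27 in PC3. Over all genes tested, 17.7% fell and 13.8% rose in LNCaP, and 32.4% fell and 34.0% rose in PC3.

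Of 18 ATF4 targets outside the pathway, 14 fell and 0 rose in LNCaP (median -0.86). Of the 17 tested in PC3 10 fell and 6 rose (median -0.76), where 32.4% and 34.0% of all genes did. PYCR1, of proline synthesis, had 15.3 ± 1.53 FPKM with erastin and 120 ± 9.84 with DMSO in LNCaP, and 10.2 ± 2.28 with erastin and 69.0 ± 20.8 with DMSO in PC3. PCK2, mitochondrial PEP carboxykinase, had log2 fold changes of -2.21 in LNCaP and -3.11 in PC3. In LNCaP TRIB3, a stress-induced pseudokinase, and STC2, a secreted glycoprotein, had 36.0 and 9.37 FPKM on average with erastin, against 163 and 40.6 FPKM with DMSO. SLC7A5, an amino acid carrier, had a log2 fold change of -2.34 in PC3. ATF3, a stress transcription factor, rose by 4.49 in PC3, at 333 ± 13.2 FPKM with erastin and 13.9 ± 1.02 with DMSO, and had a log2 fold change of -0.62 in LNCaP. ASNS, asparagine synthetase, named after its values were seen, had 13.96, 13.9 and 14.07 FPKM with erastin in PC3, against 3.13, 3.49 and 3.35 FPKM with DMSO, a log2 fold change of 1.79 (limma, adjusted p = 2.53e-05). In LNCaP ASNS had -0.67 (adjusted p = 0.0205).

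Of 12 proliferation genes, which mark cell division, 12 fell in LNCaP (median -2.09), and their sum was 130 to 177 FPKM with erastin and 430 to 618 FPKM with DMSO. In PC3 6 of 12 fell and 4 rose (median -0.49), where 32.4% and 34.0% of all genes did. Their sum there was 538 to 598 FPKM with erastin and 281 to 334 FPKM with DMSO. The log2 fold changes in LNCaP were -3.07 for RRM2, a ribonucleotide reductase subunit, -3.03 for the replication factor CDC45, -2.64 for the mitotic kinase CDK1 and -2.56 for the licensing factor MCM2. In PC3 PCNA, the replication clamp, rose by 2.29, CDK1 by 1.27 and the cyclin CCNA2 by 1.00, and CDC45 had -1.21. The part of these changes in the fall of the enzymes was not tested.

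**Figure D4:**
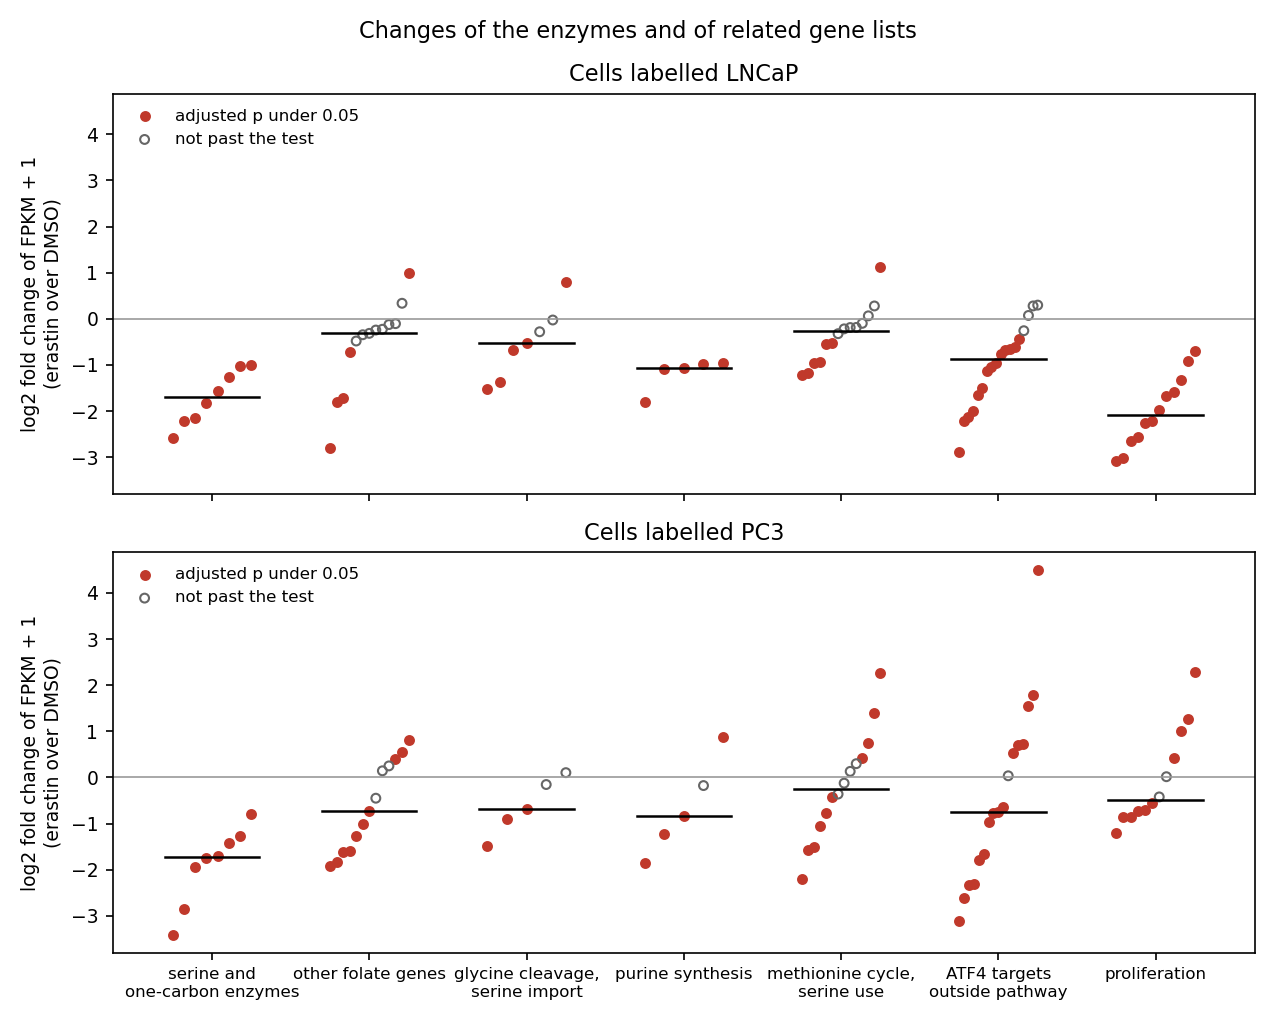
Log2 fold changes of FPKM + 1, erastin over DMSO, for the 8 enzymes and for the tested genes of 6 related lists, LNCaP above and PC3 below. Filled points passed the test, open ones did not, and lines are medians. The enzymes lie below 0 throughout, while in PC3 3 of 13 folate genes, 0 of 5 glycine cleavage and serine genes, 1 of 5 purine genes, 4 of 14 methionine cycle genes, 6 of 17 ATF4 targets and 4 of 12 proliferation genes rose, where 34.0% of all genes did.

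Among the known regulators, MYC had 16.5, 16.2 and 16.3 FPKM with erastin in LNCaP, against 80.7, 101 and 91.2 FPKM with DMSO, a log2 fold change of -2.40 (limma, adjusted p = 0.000184). In PC3 MYC had 32.5, 27.8 and 28.0 FPKM with erastin, against 62.3, 87.0 and 93.9 FPKM with DMSO, a change of -1.41 (adjusted p = 0.000453). The groups were apart in both lines. ATF4 had 140, 121 and 182 FPKM with erastin in LNCaP, against 251, 311 and 428 FPKM with DMSO, a change of -1.14 (adjusted p = 0.0170). In PC3 its groups overlapped, with 239, 197 and 209 FPKM with erastin and 213, 288 and 315 FPKM with DMSO (adjusted p = 0.145). NFE2L2, the NRF2 gene, passed the test in neither line (0.32 and 0.14, adjusted p = 0.179 and 0.514). ATF4 activity depends on its translation, which these data do not measure.

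Of 10120 protein-coding genes tested in both lines, those whose values centred within each line were most like MTHFD2 over the 12 libraries were TOMM20 (Pearson r = 0.996), RBBP4, STK39, SARS (SARS1 in the PC3 table) and PDCD4 (0.993 for the last). For PHGDH they were EIF4EBP1 (r = 0.997), CMTM7, PARVB, POLD2 and IDH2 (0.995). The enzymes themselves had r from 0.925 to 0.995 over 28 pairs. All of these share the libraries and the erastin difference, so they are a description of likeness only.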

How the data were processed

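FPKM tables were deposited by the authors, 1 for each line, with 12 libraries in all. Reads were aligned with HISAT2 2.0.5 to hg38, per the submitters' processing notes; the counter and strand setting are not given in the sources used here. Every FPKM value came out as a whole number of reads within 0.1 reads (100% of values), which gave the depths. Genes reaching 1 FPKM in 3 or more of a line's 6 libraries were tested with limma 3.58.1 (R 4.3.3) on log2(FPKM + 1) with a variance trend, two-sided, at an adjusted p of 0.05, in each line, and as a line-by-treatment interaction over genes kept in both. Isoenzyme ratios were tested by exact permutation (scipy 1.17.1). The scripts were tested on simulated data. No 2 libraries agreed within sampling noise. Same-numbered LNCaP libraries deviated together (r = 0.254, 0.347 and 0.744 over genes), all above the limit of 0.1, though other numbers reached 0.612. Those of PC3 did not (-0.380, -0.0135 and -0.311). No label says that the numbers mark a shared culture or batch. The tests reported above are therefore unpaired, and replicate number as a block was run only as an alternative.

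The members and lists were chosen with earlier results of these data known. Named genes are all 9 enzymes, up to 4 genes per list and line with the largest called change, 3 regulators, and 5 genes nearest in pattern; a few genes that the rule names are not reported here. Alternatives were other pseudocounts (0.1, 0.5), filters, scalings, voom on recovered reads, a replicate block, and each library left out.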

Additional observations from a re-analysis of the deposited data

Results flagged for a closer look

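In the main fit the fall of 2 of the 8 enzymes with erastin differed between the lines by a test of the difference itself. That is a share below the 44.4% of all genes that did. Both are mitochondrial, but SHMT2, the other mitochondrial enzyme of the 8, had a difference of -0.08 (limma interaction, adjusted p = 0.826). MTHFD1L had a log2 fold change of -2.58 in LNCaP and -3.40 in PC3, a difference of 0.82 (limma interaction, adjusted p = 0.00794). It passed the test in every alternative tried, with adjusted p from 0.000989 to 0.0239. MTHFD2 had -2.21 in LNCaP and -2.85 in PC3, a difference of 0.64 (adjusted p = 0.0488). It was lower in 3 of 3 erastin libraries in both lines. The difference between lines was not past the test in 13 of the alternatives, most of those run, where its adjusted p reached 0.115.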

How the results depend on the processing

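All 8 tested enzymes kept their direction in each line under every alternative run, and 127 of 128 LNCaP and 127 of 127 PC3 values kept their call. The isoenzyme ratios kept their direction in all 80 values. The genes called in LNCaP numbered 2572 with a mean of at least 5 FPKM, 6893 with replicate block and 2225 to 4209 with a library left out, against 4312. With replicate block PC3 gave 9068 in place of 10214, where numbers do not pair, and the block ended no call of the enzymes. A mean of at least 5 FPKM gave 5240 calls in PC3, and 8659 to 12354 came with a library left out. The interaction gave 9719 with no filter, 2476 with a mean of at least 5 FPKM and 4501 to 6553 with a library left out, against 5248. The enzymes whose response differed between lines numbered 1 with a pseudocount of 0.1 or 0.5, with no filter and with a mean of at least 5 FPKM, 1 to 2 with a library left out and 3 with quantile normalization, where PHGDH joined (0.61, adjusted p = 0.0277). The cause was not tested. With scaling to the protein-coding total the median log2 fold change over all genes was 0.10 in LNCaP and 0.18 in PC3, and all 8 enzymes stayed lower. ALDH1L2 rests on 10 to 21 reads per library in LNCaP.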
